A study of Mus musculus with 6 samples.

Results

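Transcripts of 9 myogenic genes were followed in interscapular brown adipose tissue of newborn mice: the myogenic regulatory factors Myf5, Myod1, Myog and Myf6, the precursor factors Pax3 and Pax7, their partner Mef2c, and the muscle products Chrna1 and Cdh15. They were taken by symbol from the deposited expression table, as factors of the Myf5 lineage and of muscle precursors, and are 9 of its 19241 genes. The table holds FPKM, fragments scaled to transcript length and to the mapped fragments of the library. RNA came from the whole depot and was sequenced in bulk in 6 libraries. The 3 WT libraries came from newborns labelled as carrying a floxed Fstl1 gene. The 3 KO libraries came from newborns in which Fstl1, the gene of the secreted glycoprotein follistatin-like 1, was deleted in the Myf5 lineage. The comparison asks how these genes differ in a depot whose Myf5-lineage cells lack Fstl1. The labels give no strain, no Cre allele and no account of whether a library is 1 animal or a pool, so the p-values measure the spread between these libraries. Cre drivers of this lineage are commonly inserted at the Myf5 locus. If the KO newborns carried such an allele and the WT newborns did not, its effect on the Myf5 transcript and the loss of Fstl1 cannot be told apart.

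The myogenic regulatory factors are basic helix-loop-helix proteins that bind E-boxes, short DNA motifs, as dimers with E-proteins. In the classical order, Pax3 and Pax7 mark progenitors, Myf5 and Myod1 commit them to muscle, and Myog drives differentiation with Mef2c, while Myf6 has a late role in fibres. Myf5 is also active early in a dermomyotomal lineage that gives rise to much of the interscapular brown fat, and brown adipocytes then do not keep the muscle program. A whole depot can contain neighbouring skeletal muscle, so bulk values cannot tell fewer muscle-lineage cells from less RNA per cell.

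Promoters are shown for Myog and Chrna1, because both genes are textbook targets of the myogenic factors. The RefSeq promoter table of GRCm38.p6 had entries for 6 of the 9 members. Those of Myf5, Pax7 and Mef2c lie wholly or in part inside the gene spans given here and are not described. In the 250 bases before the transcription start, the E-box CANNTG (the same motif on both strands) occurred 2 times for Myog, 3 times for Chrna1 and 3 times for Cdh15. The motif is short, and 66.2% of the 32851 promoter windows of the same length in that table held at least 1 match. The Myog window lies at chr1:134289754-134290003 on the plus strand and the Chrna1 window at chr2:73580339-73580588 on the minus strand, each printed 5′ to 3′ with E-boxes in capitals.
Myog: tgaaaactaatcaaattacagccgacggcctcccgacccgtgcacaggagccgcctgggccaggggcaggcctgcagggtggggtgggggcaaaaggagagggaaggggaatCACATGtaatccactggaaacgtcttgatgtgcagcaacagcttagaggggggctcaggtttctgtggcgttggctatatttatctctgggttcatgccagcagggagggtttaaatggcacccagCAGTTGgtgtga
Chrna1: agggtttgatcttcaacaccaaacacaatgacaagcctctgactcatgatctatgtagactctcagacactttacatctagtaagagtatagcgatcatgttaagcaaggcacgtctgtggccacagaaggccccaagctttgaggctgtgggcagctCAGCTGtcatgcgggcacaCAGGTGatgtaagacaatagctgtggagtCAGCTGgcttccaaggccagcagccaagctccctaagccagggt
The Myog match nearest the start ends 7 bases before it, and that of Chrna1 ends 39 bases before it. A match of letters is a description and not a binding site.

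Several facts of the whole series bear on the values. Fstl1 ranged from 54.4 to 130.04 FPKM over the WT libraries and from 7.93 to 13.1 FPKM over the KO libraries, the direction that the labels give. Every KO library held Y-linked transcripts (Eif2s3y at 83.7 to 99.3 FPKM, against at most 0.08 in WT) and every WT library held Xist, so sex and genotype cannot be told apart. All 13 brown adipocyte markers were detected in every library, from Fabp4 at 14000 to 17389 FPKM down to Prdm16 at 1.68 to 5.25 FPKM. Ucp1 stood at 4366 to 6255 FPKM in WT and 1695 to 3592 FPKM in KO. Depth is not given. Steps in low FPKM values of transcripts of 500 to 1300 nt gave an estimate of 13840000 to 15040000 reads per library. At that depth 3 reads equal 0.199 to 0.217 FPKM for a 1 kb transcript. Skeletal muscle fibre markers, 16 genes of the contractile apparatus, its calcium release, its energy supply (Ckm) and its oxygen store (Mb), summed to 1314, 1912 and 1521 FPKM in WT replicates 1 to 3 and to 329, 1438 and 1740 FPKM in KO replicates 1 to 3. KO replicate 1 thus stood apart with the least muscle RNA, while the other 5 libraries overlapped.

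Of the 9 members, Myf5, Myod1 and Myog were lower in every KO library than in every WT library, and none was higher in every KO library. The other 6 overlapped. In the table as a whole, 8.88% of genes lay wholly below and 11.0% wholly above. The same 3 members lay below without KO replicate 1, where 12.7% of all genes did. With limma on log2(FPKM + 1) and Benjamini-Hochberg adjustment, 13331 genes whose mean reached 0.5 FPKM were tested and 295 of them, 2.21%, passed an adjusted p of 0.05. The filter kept 5 members, and 0 of these passed. At an unadjusted p of 0.05 there was 1, Myod1, against 19.2% of all tested genes. The median log2 fold change of the 5, KO minus WT, was −0.27, beside 0.01 for all tested genes.

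**Figure D1:**
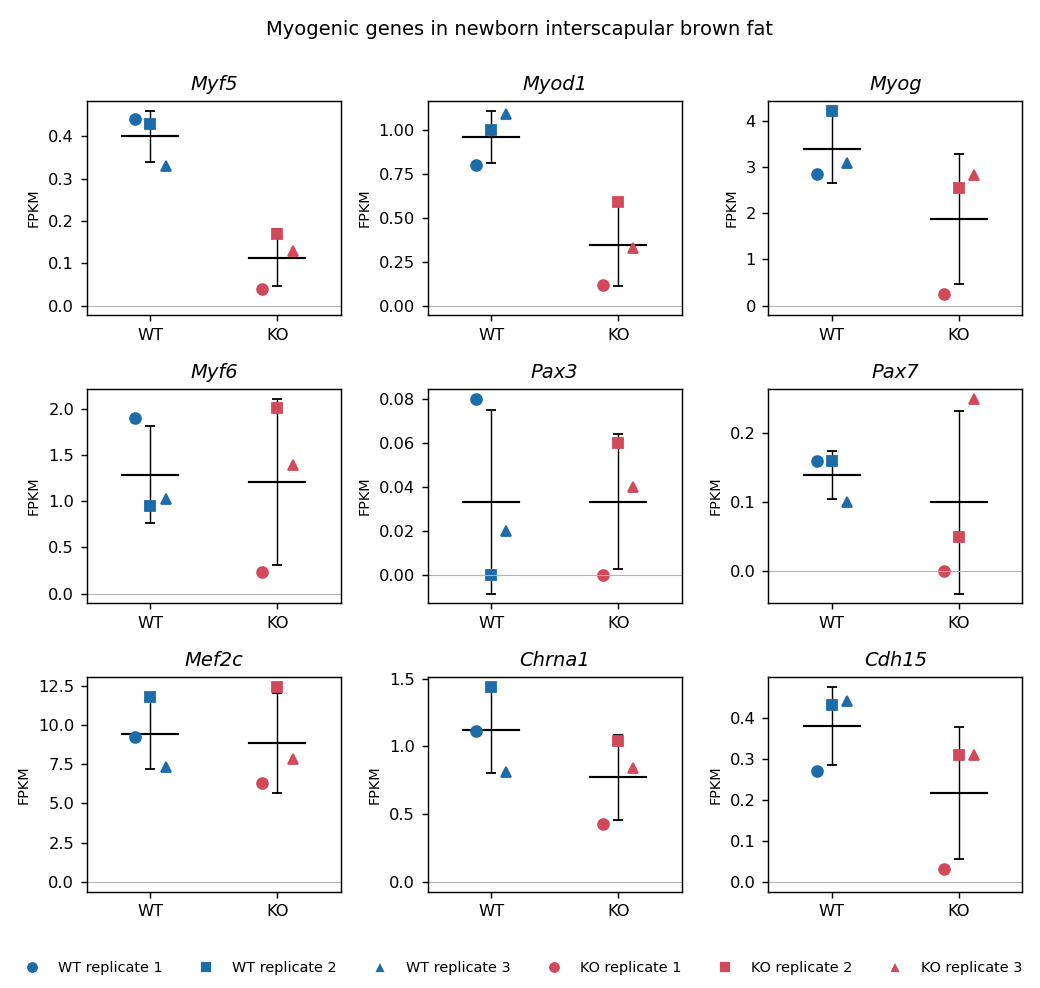
FPKM of the 9 members in each library, with WT in blue and KO in red, marker shape giving the replicate number, and a bar with whiskers for the mean ± SD of 3 libraries. The scale differs between panels. Myf5, Myod1 and Myog have no overlap between groups, and KO replicate 1 (red circle) is lowest for every member but Pax3, whose value of 0 is tied.

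Myf5, on the minus strand at chr10:107482908-107486927 (GRCm38), is the earliest of the myogenic factors in the embryo and the gene that defines the lineage in which Fstl1 was deleted. Its level was 0.44, 0.43 and 0.33 FPKM in WT replicates 1 to 3 and 0.04, 0.17 and 0.13 FPKM in KO replicates 1 to 3. The highest KO library was below the lowest WT library. The mean was 0.40 ± 0.061 FPKM in WT and 0.113 ± 0.067 FPKM in KO (SD, n = 3 each), so KO stood at 28.3% of WT. An exact two-sided permutation test gave p = 0.1, the smallest that 3 libraries against 3 can give. The mean of Myf5 was under the filter. In a limma fit of all 19241 genes its log2 fold change was −0.33 ± 0.063 (SE), with an adjusted p of 0.0975. Without KO replicate 1 it was −0.28, with an adjusted p of 0.225 by limma. These levels rest on few reads, an estimated 9.9 to 13.1 per WT library and 1.1 to 5.2 per KO library.

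Myod1, at chr7:46376474-46379092 on the plus strand, commits cells to muscle beside Myf5. It stood at 0.80, 1 and 1.09 FPKM in WT, against 0.12, 0.59 and 0.33 FPKM in KO. All KO libraries were again below all WT libraries, with the gap widest for KO replicate 1. The means were 0.963 ± 0.148 and 0.347 ± 0.235 FPKM (SD, n = 3 each), with KO at 36.0% of WT. The log2 fold change was −0.56 ± 0.17 (SE), with a limma adjusted p of 0.124. Before adjustment its limma p was under the threshold. Without KO replicate 1 it was −0.43, with an adjusted p of 0.276 by limma. The exact permutation p was 0.1 for Myod1 and also for Myog. The estimated reads were 21.1, 27.2 and 29.1 in WT and 3, 16.1 and 9 in KO.

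Myog encodes myogenin, which marks myoblasts that leave the cell cycle and differentiate. The gene lies at chr1:134290004-134292548, just after the promoter printed above. Its level was 2.86, 4.23 and 3.09 FPKM in WT and 0.25, 2.55 and 2.83 FPKM in KO. The groups did not overlap, but KO replicate 3 was close to WT replicate 1, and the low KO mean rested mainly on KO replicate 1. The means were 3.39 ± 0.734 and 1.88 ± 1.42 FPKM (SD, n = 3 each), and the log2 fold change was −0.76 ± 0.38 (SE), with an adjusted p of 0.324 by limma. Without KO replicate 1 the log2 fold change was −0.24, and KO stood at 79.3% of WT in place of 55.3%.

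Myf6, also called Mrf4, is the regulatory factor that persists in mature fibres. It is the genomic neighbour of Myf5, at chr10:107492848-107494723 on the same strand, with 5920 bases between the gene bodies. Its values of 1.90, 0.95 and 1.02 FPKM in WT overlapped with 0.24, 2.01 and 1.39 FPKM in KO. KO replicate 2 was the highest library of all and KO replicate 1 the lowest. KO stood at 94.1% of WT and the log2 fold change was −0.12 ± 0.31 (SE), with an adjusted p of 0.878 by limma. The sign depended on single libraries, since the value was 0.25 without KO replicate 1 and 0.063 without WT replicate 1. Myf5 without overlap and Myf6 with it are neighbours on the chromosome, and the difference between their changes was not tested.

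The paired-box factors of progenitors had the lowest levels among the members. Pax3, at chr1:78101267-78197136 on the minus strand, is used by embryonic progenitors and also by neural crest derivatives. It was listed at 0.08, 0 and 0.02 FPKM in WT and 0, 0.06 and 0.04 FPKM in KO, an estimated 5 reads over the WT libraries and 5.1 over the KO libraries. A difference was not detectable at this depth. Pax7, at chr4:139737059-139833530 on the minus strand, marks the progenitors that become satellite cells, the stem cells of muscle. It stood at 0.16, 0.16 and 0.10 FPKM in WT, against 0, 0.05 and 0.25 FPKM in KO. The groups overlapped, since KO replicate 3 was the highest library and KO replicates 1 and 2 the lowest. Its estimated reads ran from 0 to 21.8 per library, and KO stood at 71.4% of WT with all libraries, at 107% without KO replicate 1 and at 17.9% without KO replicate 3. The exact permutation test gave p = 1 for Pax3 and p = 0.6 for Pax7. The 10 markers of Schwann cells and melanocytes, which come from the neural crest, summed to 22.3 to 27.3 FPKM in WT and 18.1 to 23.2 FPKM in KO. Most of that was S100b, which is also made outside Schwann cells. The glial factor Sox10 lay between 0.38 and 0.71 FPKM and the melanoblast enzyme gene Dct at most at 0.18 FPKM. Of the 7 tested markers 0 passed the limma threshold and 1 did before adjustment, Mitf, with KO below WT and an adjusted p of 0.155 by limma. The part of these cells in the Pax3 values was not tested.

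Mef2c, a MADS-box partner of the myogenic factors at chr13:83504017-83667079, was the most abundant member. Its values were 9.22, 11.79 and 7.35 FPKM in WT and 6.28, 12.45 and 7.86 FPKM in KO. The groups overlapped over most of their range, and replicate 2 was the highest in each group. KO stood at 93.8% of WT and the log2 fold change was −0.11 ± 0.25 (SE), with an adjusted p of 0.854 by limma. Its sign changed without KO replicate 1 (0.084) and without WT replicate 2 (0.046). Mef2c is also made outside muscle, in endothelial and several blood and neural cells. Here 8 endothelial markers summed to 552 to 741 FPKM in WT and 566 to 643 FPKM in KO, and 8 macrophage markers to 116 to 172 and 158 to 221 FPKM. The part of these cells in the Mef2c level was not tested.

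The muscle products are a receptor subunit and an adhesion protein. Chrna1, at chr2:73563281-73580338, encodes the alpha subunit of the muscle acetylcholine receptor, which binds the transmitter at the nerve-muscle contact. It stood at 1.11, 1.44 and 0.81 FPKM in WT, against 0.43, 1.04 and 0.84 FPKM in KO. Only KO replicate 1 lay outside the WT range. KO stood at 68.8% of WT, and the log2 fold change of −0.27 ± 0.19 (SE) had an adjusted p of 0.475 by limma and came to −0.12 without KO replicate 1. Cdh15, at chr8:122848374-122867397, encodes M-cadherin, which joins myoblasts and satellite cells to fibres. Its levels were 0.27, 0.43 and 0.44 FPKM in WT and 0.03, 0.31 and 0.31 FPKM in KO. WT replicate 1 was below 2 of the KO libraries, so the groups overlapped. KO stood at 57.0% of WT with all libraries and at 81.6% without KO replicate 1. The exact permutation test gave p = 0.3. The estimated reads of Cdh15 were few, at 12.6, 20.7 and 20.8 in WT and 1.3, 14.9 and 14.9 in KO.

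Because FPKM is scaled to transcript length, the members can be set in order of level. In WT the order of mean FPKM was Mef2c, Myog, Myf6, Chrna1, Myod1, Myf5, Cdh15, Pax7 and Pax3. The libraries of Mef2c and Myog, of Myog and Myf6, of Myod1 and Myf5, of Cdh15 and Pax7 and of Pax7 and Pax3 did not overlap, while the ranges of Myf6 and Chrna1, of Chrna1 and Myod1 and of Myf5 and Cdh15 did. In KO, Mef2c alone was apart from the member next to it, and the ranges of all other neighbours in the order overlapped. The KO order differed in 1 place, with Cdh15 at 0.217 FPKM above Myf5 at 0.113 FPKM.

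KO replicate 1 was below every other library for 8 of the 9 members, against 9.47% of all genes. Relative to the median of the other 5 libraries it held 8.74% for Myog, 9.68% for Cdh15, 12.1% for Myf5, 15.0% for Myod1 and 17.3% for Myf6. Mef2c, at 68.1%, and Chrna1, at 41.3%, were less reduced. The fibre markers were low in the same library, Acta1 (skeletal alpha-actin) at 17.9% and Ckm (muscle creatine kinase) at 19.8%, and 15 of the 16 were lowest there. The exception was Mb, myoglobin, at 102% of the same median.

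Across the 6 libraries, the members went with muscle RNA to different degrees, mainly through KO replicate 1. Pearson's r of log2(FPKM + 1) with the mean of the 16 fibre markers was 0.96 for Myog, 0.88 for Cdh15, 0.83 for Chrna1, 0.81 for Pax7, 0.74 for Myf6, 0.63 for Myod1 and 0.61 for both Mef2c and Myf5, and 0.36 for Pax3. These correlations are over 6 libraries that share the low library and the 2 groups, and are given as descriptions. Over the 5 libraries without KO replicate 1, r was 0.77 for Pax7, 0.54 for Myog and 0.35 for Chrna1, near 0 for Cdh15 (0.098), Mef2c (0.092) and Myf5 (−0.12), and negative for Myod1 (−0.37), Myf6 (−0.41) and Pax3 (−0.47). The relation to the fibre markers thus rests on KO replicate 1 for most members. Among the members themselves Myog went most closely with Cdh15 (r = 0.95), and Myod1 with Myf5 (r = 0.91). Pax3 and Myf6 had r = 0.87, which for Pax3 rests on about 10 reads.

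**Figure D2:**
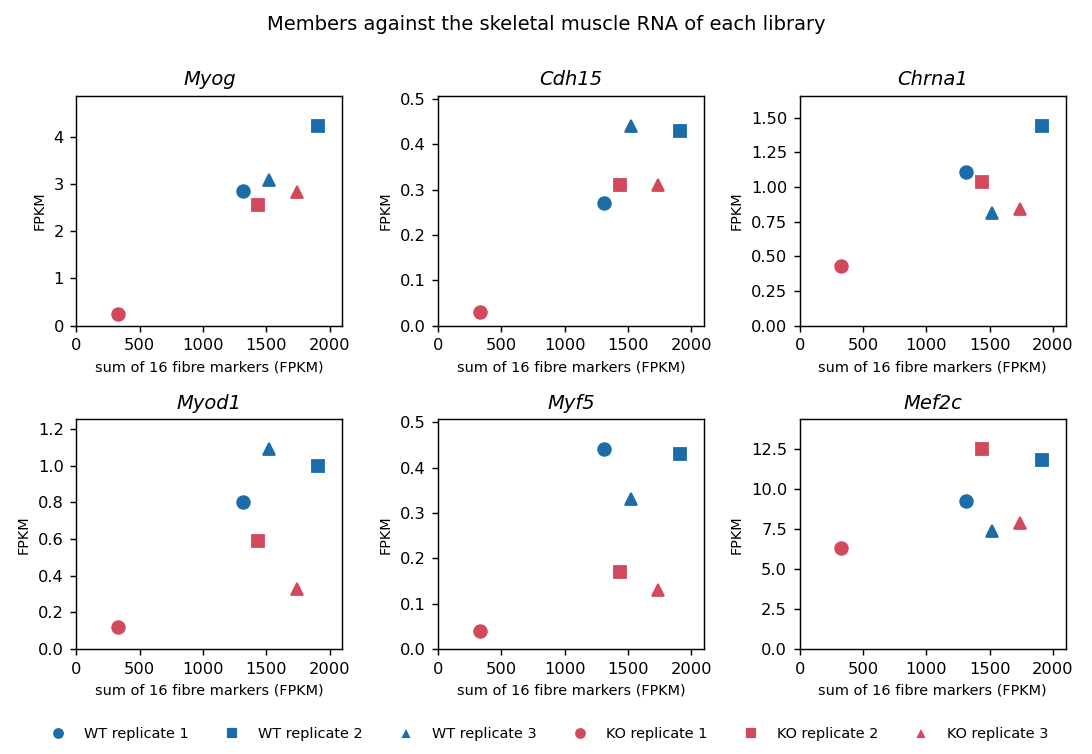
FPKM of 6 members (vertical axes) against the summed FPKM of 16 skeletal muscle fibre markers (horizontal axes), 1 point per library, WT in blue and KO in red. KO replicate 1 lies at 329 FPKM of fibre markers. The other 5 libraries lie between 1314 and 1912 FPKM. There KO replicates 2 and 3 sit below all WT libraries for Myf5, Myod1 and, narrowly, Myog. For Mef2c, Chrna1 and Cdh15 they do not.

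The members were also expressed per 1000 FPKM of fibre markers, a scale chosen after the data were seen. Myf5 then stood at 0.335, 0.225 and 0.217 in WT and at 0.122, 0.118 and 0.0747 in KO, and no longer had its lowest value in KO replicate 1. Myod1 stood at 0.609, 0.523 and 0.717 in WT and at 0.365, 0.410 and 0.190 in KO. Myog was nearly constant over the WT libraries, at 2.18, 2.21 and 2.03, and lower in KO, at 0.761, 1.77 and 1.63. On this scale KO was 40.5% of WT for Myf5, 52.2% for Myod1 and 64.8% for Myog, with no overlap for these 3. The other 6 overlapped, from 65.8% for Pax7 and 67.4% for Cdh15 to 118% for Chrna1 and 179% for Mef2c. The last values rest on the low denominator of KO replicate 1, since without it Chrna1 stood at 84.9% and Mef2c at 110% of WT. Without that library Myf5 stood at 37.3%, Myod1 at 48.7%, Myog at 79.4%, Cdh15 at 82.1%, Pax7 at 98.7% and Myf6 at 126% of WT. Only 0.603% of all genes lay wholly below on this scale, a share that the low denominator of KO replicate 1 keeps small for genes outside muscle. Without that library the same 3 members lay below, against 10.3% of all genes. On a second scale, the log2(FPKM + 1) difference from the mean of the fibre markers, Myog alone lay wholly below, at −2.37 ± 0.08 in WT and −2.67 ± 0.14 in KO (SD, n = 3 each). On that scale 0.0624% of all genes lay wholly below, a share again kept small by the low fibre mean of KO replicate 1. Myf5 overlapped on the second scale, at a mean of −4.01 in WT and −3.88 in KO, and so did Myod1, at −3.52 and −3.62. The second scale compresses genes under 1 FPKM, which Myf5 and most Myod1 values are.

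**Figure D3:**
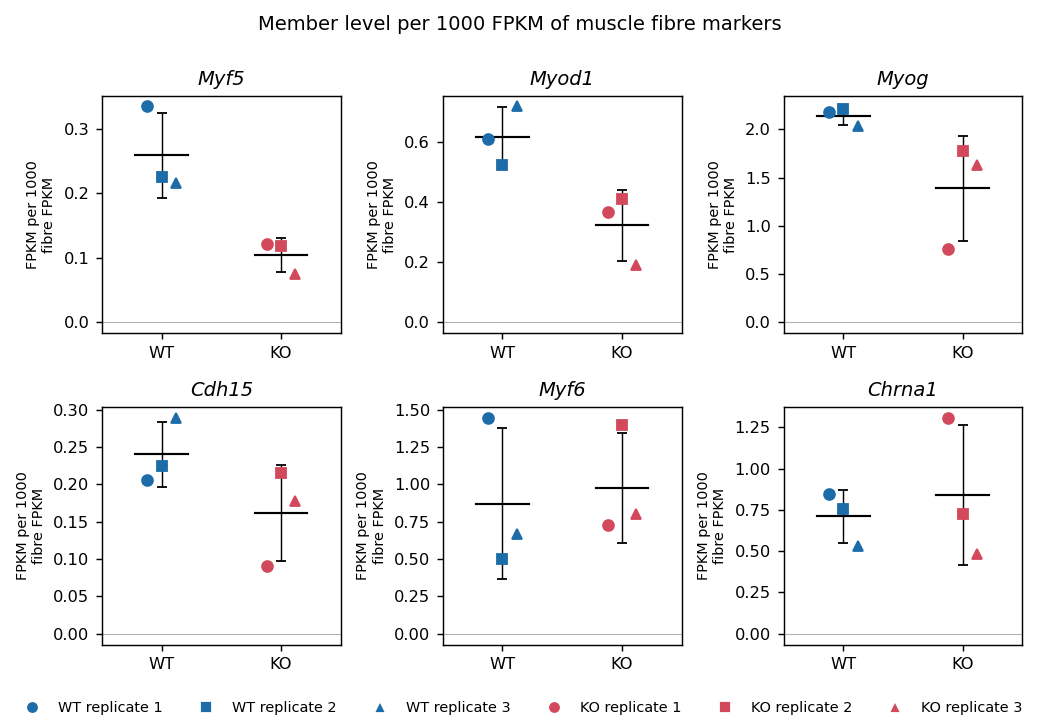
Level of 6 members per 1000 FPKM of summed fibre markers, by library, WT in blue and KO in red, with the mean ± SD of 3 libraries. Myf5, Myod1 and Myog lie below WT in every KO library, with KO at 40.5%, 52.2% and 64.8% of WT, and Cdh15, Myf6 and Chrna1 overlap.

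Other genes of the pathway were taken from 5 lists holding 81 genes, of which 59 were tested. Of these 38 were lower and 21 higher in KO, with a median log2 fold change of −0.10. The 1 gene past the threshold (1.69%, against 2.21% of all genes) was lower in KO, and 15 of the 59 (25.4%) had an unadjusted limma p under the threshold, against 19.2% of all genes.

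Among 18 factors at the entry to the lineage, 12 were tested, with 6 lower and 6 higher and a median log2 fold change of 0.03. Dmrt2, a dermomyotome factor that acts upstream of Myf5 in the mouse embryo, fell. Its level was 14.09, 11.33 and 13.51 FPKM in WT and 5.62, 5.02 and 4.81 FPKM in KO. The groups were far apart and tight, and KO replicate 1 was the highest KO library and not the lowest. The log2 fold change was −1.18 ± 0.15 (SE), with a limma adjusted p of 0.0130. Leaving out WT replicate 3 raised that adjusted p to 0.0656 at a log2 fold change of −1.15. Tcf15 (paraxis), a somite factor, was 10.45, 15.80 and 23.88 FPKM in WT and 6.96, 9.70 and 6 FPKM in KO, without overlap, but missed the threshold with a limma adjusted p of 0.1001. Meox2, the most abundant of the list at a mean of 16.8 FPKM, overlapped between groups. In mean FPKM over all libraries Tcf15, at 12.1, was above every member. Dmrt2, at 9.06, was above every member other than Mef2c, at 9.16.

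The genes of satellite cells and precursors were 14, of which 10 were tested, 5 lower and 5 higher, with 0 past the limma threshold and 4 before adjustment. Their median was −0.064, and 0.0069 without KO replicate 1, where 2 were under the limma threshold before adjustment. Itga7, the laminin-binding integrin of muscle, stood at 58.5% of WT, with a log2 fold change of −0.67 and an adjusted p of 0.144 by limma. Vcam1, an adhesion molecule of satellite cells and also of endothelium and macrophages, was above WT in every KO library, with a log2 fold change of 0.65 and an adjusted p of 0.0989 by limma. The macrophage markers had 8 of 8 values higher in KO and 0 past the limma threshold, with a median log2 fold change of 0.26 and 2 before adjustment. Without KO replicate 1 the median was 0.48, with 4 before adjustment in limma. The complement gene C1qb came nearest, at 151% of WT with an adjusted p of 0.106 by limma, and the part of macrophages in the Vcam1 value was not tested. Peg3, the most abundant of the satellite and precursor genes at a mean of 75.1 FPKM, stood at 150% of WT but overlapped between groups. Sdc4 was above WT in every KO library, with a log2 fold change of 0.50 and an adjusted p of 0.178 by limma. Of the 4 genes before adjustment, Itga7 alone was thus lower in KO, and Vcam1, Sdc4 and Peg3 were higher.

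Of 13 genes of myoblast adhesion and fusion, 9 were tested, 7 lower and 2 higher, with 0 past the limma threshold, 1 before adjustment and a median of −0.04. That 1 was Mymk (Tmem8c in the table), the membrane protein myomaker that fusion needs. It stood at 1.49, 2.37 and 1.70 FPKM in WT, against 0.12, 0.79 and 1.37 FPKM in KO. No KO library reached the WT range, and KO replicate 1 was the lowest. The log2 fold change was −0.75, with an adjusted p of 0.175 by limma. Jam2, the most abundant of the list, had a KO mean at 101% of WT.

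The partners and restraints of the myogenic factors were well measured, with 24 of 25 tested. There were 17 lower and 7 higher, with 0 past the limma threshold, 5 before adjustment and a median of −0.15. Those 5 were Id1, Id3, Id4 and Bhlhe41, lower in KO, and Hdac4, which was above WT in every KO library. The log2 fold change of Hdac4 was 0.44, with an adjusted p of 0.174 by limma. Id1, which blocks E-protein dimers of the myogenic factors and is made by many cell types, was 64.34, 60.35 and 96.53 FPKM in WT and 41.88, 47.18 and 30.78 FPKM in KO. The groups did not overlap, and the log2 fold change of −0.86 had an adjusted p of 0.0831 by limma. Unlike 8 of the 9 members, it was lowest in KO replicate 3.

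The neuromuscular list beside Chrna1 had 11 genes, of which 4 were tested, 3 lower and 1 higher, with 0 past the limma threshold, 2 before adjustment and a median of −0.32. Without KO replicate 1 the median was −0.14, with 1 before adjustment in limma. Ufsp1, a protease gene that lies beside the acetylcholinesterase gene, was the nearest to the threshold at 48.7% of WT, with a limma adjusted p of 0.0634. It is a neighbour by position and not a receptor or synapse gene, and the counts and medians of the list include it. Chrnb1 and the acetylcholinesterase gene Ache had log2 fold changes of −0.44 and −0.21, neither under the limma threshold before adjustment. Lrp4, the other gene before adjustment with all libraries, went the other way, with every KO library above every WT library. Its log2 fold change was 0.35, with an adjusted p of 0.251 by limma. The subunits that join Chrna1 in the receptor were looked up after their values were seen. Chrnb1 stood at 2.60, 2.52 and 2.91 FPKM in WT, against 0.86, 2.62 and 1.95 FPKM in KO, Chrng, the fetal gamma subunit, had KO at 39.4% of WT, and both overlapped between groups. The delta subunit gene Chrnd, at 73.6% of WT, overlapped too, with its highest value, 0.64 FPKM, in KO replicate 2. Chrne, the adult epsilon subunit, was listed at 0 in 4 of the 6 libraries. Of the 11 listed genes 3 lay wholly below WT and 1, Lrp4, wholly above, against 8.88% and 11.0% of all genes. Those below were Ufsp1 and 2 genes under the filter, Rapsn at 34.5% and Colq at 43.9% of WT.

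The other muscle lists gave the background to these values. The fibre markers were lower for 15 of 15 tested genes, with a median of −0.39. The 6 embryonic and cardiac-shared muscle genes were lower for 6 of 6, with a median of −0.73. Of either list 0 passed the limma threshold (1 and 0 before adjustment). Among the embryonic and shared genes Tnnt2 had the smallest p, at 65.3% of WT with an adjusted p of 0.415 by limma. Myl1, their most abundant, stood at 71.9% of WT. Without KO replicate 1 the fibre markers were lower for 6 and higher for 9, with a median of 0.12, and the embryonic and shared genes had a median of −0.06. The 5 tested members had a median of −0.12 without that library, with 3 lower and 2 higher. Of the 13 brown adipocyte markers, 8 were lower and 5 higher, and the 2 that passed fell: Elovl3, a fatty acid elongase, to 17.6% of WT and Plin1, a lipid droplet protein, to 37.9% of WT, with limma adjusted p of 0.0151 and 0.0267. Neither of these was lowest in KO replicate 1, and without that library 3 of the markers passed in limma. Among the 8 endothelial markers 0 passed the limma threshold and 1 did before adjustment, Cldn5. It stood at 56.8% of WT with overlap between groups and an adjusted p of 0.237 by limma. Cdh5, the most abundant of them, stood at 93.2% of WT.

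**Figure D4:**
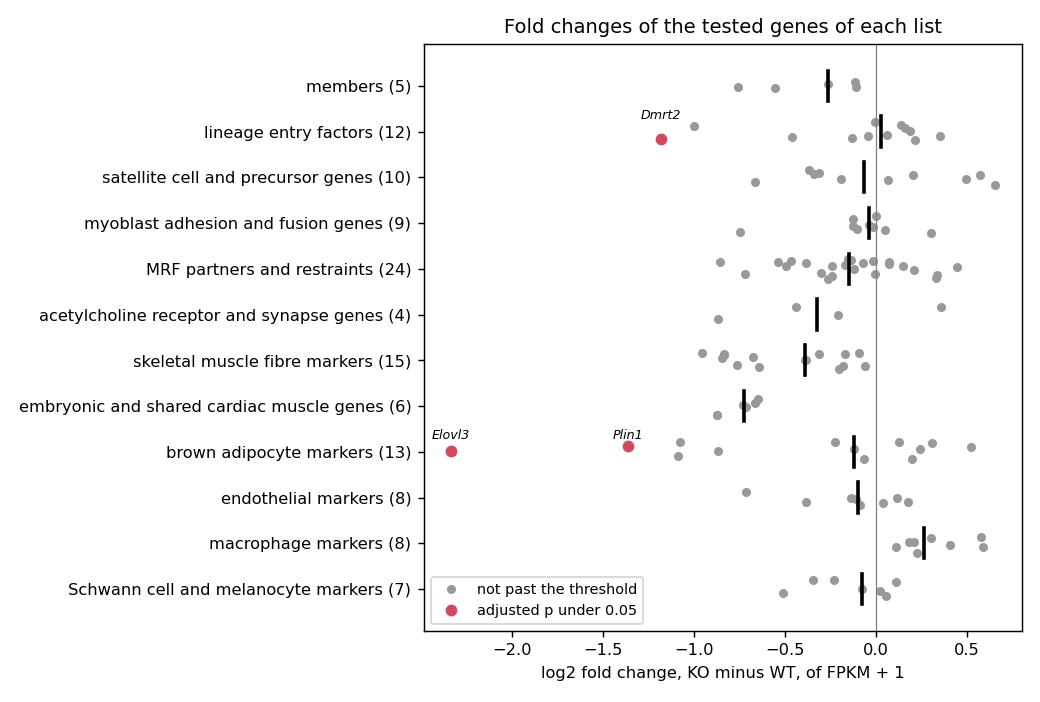
Log2 fold change of FPKM + 1, KO minus WT, for the tested genes of the members and of 11 lists, 1 point per gene, with the number tested in brackets and a bar at the median. Red points passed the limma threshold (Dmrt2, Elovl3 and Plin1) and grey points did not. The medians lie at −0.27 for the members, −0.39 for the fibre markers and 0.03 for the lineage entry factors.

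Genes whose pattern over the 6 libraries was most like a member's were found among 12136 genes whose mean reached 1 FPKM, by Pearson's r of log2(FPKM + 1), as a description. For Myog they were the fast and slow troponin genes Tnni2, Tnnt1 and Tnnc2, the muscle AMP deaminase gene Ampd1 and Jsrp1, with r from 0.994 to 0.998. For Myod1 none of the 5 was a fibre gene: Mfap4, a microfibril protein of the matrix, Arl4c, Dnmbp, the neurotrophin receptor gene Ngfr and Schip1, with r from 0.98 to 0.99. For Chrna1 they were Dnajb3, the creatine synthesis gene Gatm, Pkia, Fhl1 and the adhesion gene Ncam1. For Mef2c they were Sytl2, the endothelial and blood factor Tal1, Fgf7, Snx30 and C430049B03Rik. Over so few libraries many genes reach a high r, and 126 genes were above 0.9 for Myog and also 126 for Myod1.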

How the data were processed

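Whole interscapular brown adipose tissue of newborn mice was profiled by bulk RNA-seq in 3 WT and 3 KO libraries, grouped and numbered by title. The authors deposited FPKM rounded to 2 decimals, per the file headers. The submitters' processing notes name HISAT2 2.0.4, Bowtie2 2.2.5, DESeq2 and build mm10, without their roles. The counting tool, annotation and strand handling are not given in the sources used here. The members and gene lists were chosen with earlier results of these data known.

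FPKM are not counts, so log2(FPKM + 1) was fitted with limma 3.58.1 in R 4.3.3 (eBayes with trend, no covariates) on all 13331 genes whose mean reached 0.5 FPKM, with Benjamini-Hochberg adjustment over these. The pseudocount of 1 understates the change of low genes. The fit was tested on simulated data. Exact permutation tests used FPKM. Estimated reads came from the steps of low FPKM values of genes with transcripts of 500 to 1300 nt (318 to 363 values per library, 73.8% to 81.8% within 0.2 of a whole read). They hold for short genes and not for the whole table, so no count test was run. Of the members only Myf6, at 1263 nt, lay in that length range. For the others, from Myog at 1495 nt to Pax7 at 5854 nt, the estimated reads were carried beyond it and are approximate. Coordinates come from RefSeq on GRCm38.p6, the assembly of mm10.

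Genes named are all members, then from each list those past the threshold, or else the gene with the smallest p and the most abundant. Other genes named were chosen after their values were seen. The genes whose pattern was most like that of Myf6 are not reported here. Same-numbered libraries had correlations of 0.07, 0.04 and 0.04 between their deviations from the group means, and were treated as unpaired. Alternatives were other pseudocounts (0.1 and 0.01), the filter dropped or raised to 1 FPKM, 3 other scalings, eBayes without trend or robust, the replicate block and leaving out each library. The scale per fibre FPKM and the counts, list medians, correlations and fibre-scaled levels without KO replicate 1 were added after seeing the data.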

Additional observations from a re-analysis of the deposited data

How the results depend on the processing

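No tested member passed the limma threshold in the main fit or in any of the 16 alternatives. These fits tested 5 of the 9 members, but 9 without the filter and 3 with the filter at 1 FPKM. Myf5, Pax3, Pax7 and Cdh15 were thus tested only without the filter. The genes past it over the whole table, 295 in the main fit, were 35 without the filter, 191 after rescaling to a common sum, 167 with the replicate block, and 31 to 370 when libraries were left out in turn (31 without WT replicate 3, 39 without WT replicate 2, 121, 89 and 87 without KO replicates 1 to 3). The other scalings, pseudocounts, eBayes settings and the filter at 1 FPKM gave 285 to 372. The share of lower genes among them, 45.4%, ranged over the alternatives from 25.8% without KO replicate 2 and 29.9% without KO replicate 3 to 55.4% without KO replicate 1; the cause was not tested. With libraries left out in turn Myf6 ranged from −0.39 to 0.25, reversing without WT replicate 1 (0.063) and KO replicate 1 (0.25), and Mef2c from −0.36 to 0.084, reversing without WT replicate 2 (0.046) and KO replicate 1 (0.084). In the same leave-outs Myod1 stayed between −0.68 and −0.43 and Myog between −1.05 and −0.24. The pseudocount of 0.01, which widens the change of low genes, gave −1.69 for Myod1 and −1.44 for Myog. Dmrt2 missed the threshold only without WT replicate 3, and a call among the lineage entry factors was made in each other setting. The replicate block changed no member's call, and the numbers are not known to pair the libraries. Of the brown adipocyte genes, Elovl3 passed in 13 and Plin1 in 10 of the 16. Depth limits Pax3, with at most 4 estimated reads per library, Myf5, with at most 13.1, Cdh15, with at most 20.8, and Pax7, with at most 21.8.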
